A study of Mus musculus with 24 samples.

Results

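At 8 weeks of age the mammary glands of PyMT mice carry adenoma and mammary intraepithelial neoplasia (MIN), and the comparison described here set 3 such PyMT libraries against 3 libraries of normal mammary gland from FVB control mice of the same week. The 6 libraries were taken by the week and genotype in their titles from 24 small RNA libraries that covered weeks 6, 8, 10 and 12, with every miRNA of the deposited count table. The PyMT mice were F1 females heterozygous for the MMTV-PyVT transgene, in which the MMTV promoter drives the polyoma middle T oncoprotein in mammary epithelium. The controls were females of the parental FVB strain without the transgene, and both groups shared the FVB background. Each library came from its own mouse. The methods of the study say that tissue of the adenoma/MIN stage still holds normal gland cells, so the PyMT libraries are a mixture, and in whole tissue fewer cells of a type and less RNA per cell cannot be told apart.

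MicroRNAs are short RNAs cut from hairpin precursors, and they lower the output of messenger RNAs that pair with the seed, the bases near their 5′ end. Members of a family share a seed and so can bind overlapping sets of targets, while members of a genomic cluster can be cut from a single primary transcript. In the mammary gland the miR-200 family is a mark of epithelium, miR-143 and miR-145 are best known from smooth muscle and myoepithelial cells, and miR-126 from endothelium.

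The sequences of the miRNAs on which the results turn are given first, because several of the largest differences lay between miRNAs that share a seed. They are mature sequences from RefSeq on GRCm38.p6, from 5′ to 3′, with the seed (bases 2 to 8) in capitals. The deposited counts are per miRNA and do not separate the arms of a hairpin, so the arm shown is the one usually described as the main product. Epithelial miRNAs come first, then families whose members differed.
miR-200b: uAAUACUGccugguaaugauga
miR-200c: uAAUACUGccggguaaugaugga
miR-429: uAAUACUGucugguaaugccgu
miR-200a: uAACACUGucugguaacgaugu
miR-141: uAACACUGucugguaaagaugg
miR-182: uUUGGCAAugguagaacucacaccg
miR-96: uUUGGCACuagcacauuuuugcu
miR-183: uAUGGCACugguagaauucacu
miR-31: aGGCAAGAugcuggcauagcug
miR-146b: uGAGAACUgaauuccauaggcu
miR-146a: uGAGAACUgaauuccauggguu
miR-92b: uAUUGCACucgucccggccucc
miR-92a: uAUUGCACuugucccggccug
miR-148a: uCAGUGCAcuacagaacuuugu
miR-148b: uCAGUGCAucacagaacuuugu
miR-152: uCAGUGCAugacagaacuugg
miR-27b: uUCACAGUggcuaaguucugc
miR-27a: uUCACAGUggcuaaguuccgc
miR-130b: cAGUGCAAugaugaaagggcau
miR-301a: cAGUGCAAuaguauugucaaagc
miR-130a: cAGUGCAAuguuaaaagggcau
miR-708: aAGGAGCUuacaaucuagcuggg
miR-28: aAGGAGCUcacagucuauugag
miR-10b: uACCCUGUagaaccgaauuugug
miR-10a: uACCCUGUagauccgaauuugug
The members of the miR-200 family carry 2 seeds, that of miR-200b, miR-200c and miR-429 and that of miR-200a and miR-141. The 3 miRNAs of the miR-183/96/182 cluster have 3 different seeds.

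The 6 libraries held between 1032241 and 3560156 counts, and between 264 and 299 miRNAs had a count. The lowest total was that of PyMT 2 and the highest that of FVB 1. All levels are CPM, counts relative to the total of their library, scaled by the trimmed mean of M-values (TMM), on which a floor of 3 counts stood for 0.957 to 3.41 CPM. Every set of 3 values is in the order of replicates 1, 2 and 3. Of 510 miRNAs in the table, 337 had a count in these 6 libraries and 237 were abundant enough to be tested. The 100 that had counts but were not tested held at most 0.00796% of a library's counts. Of 56 miRNAs whose annotated genes all lie on the X chromosome the table listed 55 at 0 in all 24 libraries, among them miR-221, miR-222, miR-223 and miR-322, whereas 71 of 383 miRNAs with genes on other chromosomes alone were at 0 throughout. A listed 0 of an X-linked miRNA is therefore not read as a low level, since the table does not show whether reads on that chromosome were counted.

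In PyMT adenoma/MIN 52 miRNAs were over-expressed and 32 were under-expressed against normal gland, 84 of the 237 tested (35.4% in either direction, 21.9% over and 13.5% under) at an adjusted p under 0.05 (quasi-likelihood test of edgeR, p-values adjusted by Benjamini-Hochberg over all 237). Among the over-expressed miRNAs the median log2 fold change (PyMT over FVB) was 1.65, and 19 were at least 4-fold higher. Among the under-expressed miRNAs the median was -1.18, and 4 were at least 4-fold lower. The median over all tested miRNAs was -0.09. Scaling by library totals alone in place of TMM lowered the log2 fold changes by a median of 0.13. It gave 33 over-expressed and 25 under-expressed miRNAs, so it was not a plain shift in 1 direction. Of the 84 called miRNAs, 83 had PyMT and FVB libraries that did not overlap in CPM, which was so for 125 of all 237 tested (52.7%). The exception was miR-338, chosen here after its values were seen, at 291, 74 and 238 CPM in PyMT and 751, 1210 and 289.9 CPM in FVB (adjusted p = 0.0493), and its call held only without FVB 3 (adjusted p = 0.0594 to 0.141 without the others).

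Both groups carry replicate numbers 1 to 3, and same-numbered PyMT and FVB libraries deviated from their group means together. A fit with the number as a block called 131 miRNAs (55.3%), of which 63 were over-expressed (26.6%) and 68 under-expressed (28.7%). All 84 calls were among these in the same direction, and 47 were added, 11 over-expressed and 36 under-expressed. Every called miRNA had the same sign in all 3 same-numbered pairs, as had 179 of the 237 tested. For the 83 calls without overlap any pairing of the libraries would give this, so it adds no support to the pairing.

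**Figure D1:**
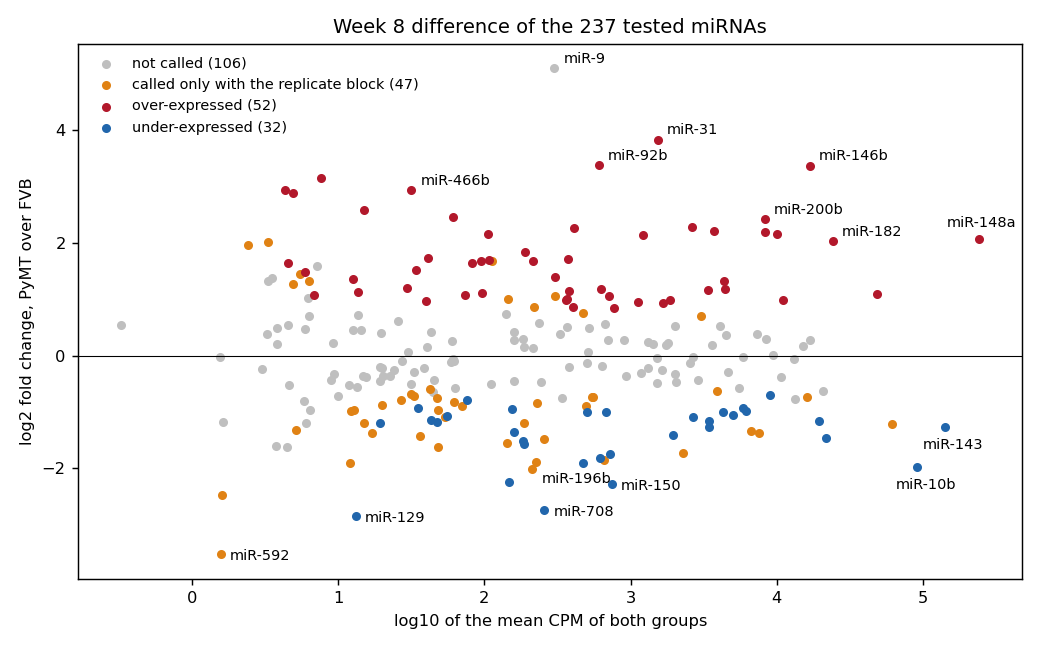
Log2 fold change of PyMT over FVB at week 8 against the log10 of the mean CPM of both groups, 1 point per tested miRNA, with calls in color and gray for miRNAs not called in either fit. The 52 over-expressed and 32 under-expressed miRNAs spread over the whole range of levels, and most of the 47 added by the replicate block lie below 0. The fold change of miR-592, which had 1 count in PyMT, depends on the prior count of the fit.

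The most counted miRNAs changed places between the groups. miR-148a was the most counted miRNA in every PyMT library, with 349728, 540559 and 283823 CPM against 104785, 90379 and 86303 CPM in FVB, a log2 fold change of 2.06 ± 0.32 (SE, adjusted p = 0.00327). miR-143, the most counted miRNA in every FVB library, was at 91000, 63758 and 92554 CPM in PyMT and 245000, 160697 and 188489 CPM in FVB, a log2 fold change of -1.26 ± 0.28 (adjusted p = 0.0121). In both cases the 3 libraries of one group lay above all 3 of the other.

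Among the other most counted miRNAs, miR-92a was at 64368, 64566 and 67742 CPM in PyMT and 27366, 33076 and 32068 CPM in FVB (log2 fold change 1.09, adjusted p = 0.00705). miR-10b, from an intron of Hoxd4 on mm9 chr2:74564127-74564194, was at 38724, 18889 and 52307 CPM in PyMT and 159872, 116637 and 158741 CPM in FVB (log2 fold change -1.99, adjusted p = 0.00851). miR-126, carried within Egfl7 and typical of endothelium, was at 14928, 6358 and 13213 CPM in PyMT and 39919, 24547 and 30406 CPM in FVB (log2 fold change -1.46, adjusted p = 0.0182). No PyMT library reached the FVB range for miR-10b or miR-126, although the call of miR-126 was lost without FVB 1 (adjusted p = 0.0508).

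miR-31, known from epithelium and often altered in carcinoma, had the highest log2 fold change of the called miRNAs. It lies between genes on mm9 chr4:88556461-88556566. Its level was 3016, 3914 and 1676 CPM in PyMT and 229.6, 227 and 148 CPM in FVB, which is 14.2-fold higher (log2 fold change 3.83 ± 0.38, adjusted p = 0.00122). miR-92b, a relative of miR-92a on mm9 chr3:89031038-89031120, was at 1188, 1453 and 664 CPM in PyMT and 109, 134 and 73.7 CPM in FVB (log2 fold change 3.38 ± 0.39, adjusted p = 0.00189). miR-146b, from an intron of Tmem180 on mm9 chr19:46417252-46417360, was at 29113, 37434 and 25432 CPM in PyMT and 2756, 3175 and 2966 CPM in FVB (log2 fold change 3.37 ± 0.24, adjusted p = 0.000168). For each of these 3 miRNAs the lowest PyMT library stood far above the highest FVB library, and each call held when any single library was left out.

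The next of the highest fold changes belonged to miRNAs of low level. miR-1965, on mm9 chr7:87297776-87297901, was at 8.4, 6.83 and 7.79 CPM in PyMT and 0.957, 1.24 and 0.567 CPM in FVB (log2 fold change 2.95 ± 0.44). The remaining 4 were miR-466e, miR-466b, miR-466a and miR-466c, which are described with their cluster.

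At the other end, miR-708 lies in an intron of Odz4 on mm9 chr7:103397934-103398042. It was at 77.4, 19.3 and 102 CPM in PyMT and 482, 350.2 and 514 CPM in FVB (log2 fold change -2.74 ± 0.56, adjusted p = 0.00993). miR-150, a miRNA of mature lymphocytes on mm9 chr7:52377127-52377191, was at 358, 142.3 and 257 CPM in PyMT and 1915, 899 and 880.4 CPM in FVB (log2 fold change -2.29 ± 0.45, adjusted p = 0.00867). In both, PyMT 2 was the lowest of the 6 libraries and the groups were well apart.

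miR-129 had the lowest log2 fold change of the calls, but it rested on few counts. The libraries held 12, 1 and 2 counts in PyMT and at least 23 each in FVB, or 7.2, 1.14 and 0.974 and 46.6, 10.8 and 13 CPM (log2 fold change -2.85 ± 0.87, adjusted p = 0.0379), and its call was lost without PyMT 2, PyMT 3, FVB 1 or FVB 3 (adjusted p = 0.0514 to 0.108). Without FVB 1 its log2 fold change was -1.84. miR-139, from an intron of Pde2a, was at 102, 42.1 and 136 CPM in PyMT and 317, 216 and 299.5 CPM in FVB (log2 fold change -1.56 ± 0.44, adjusted p = 0.0296), a call lost without PyMT 1, FVB 1 or FVB 3 (adjusted p = 0.0694 to 0.0767). Neither miRNA had overlapping libraries.

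**Figure D2:**
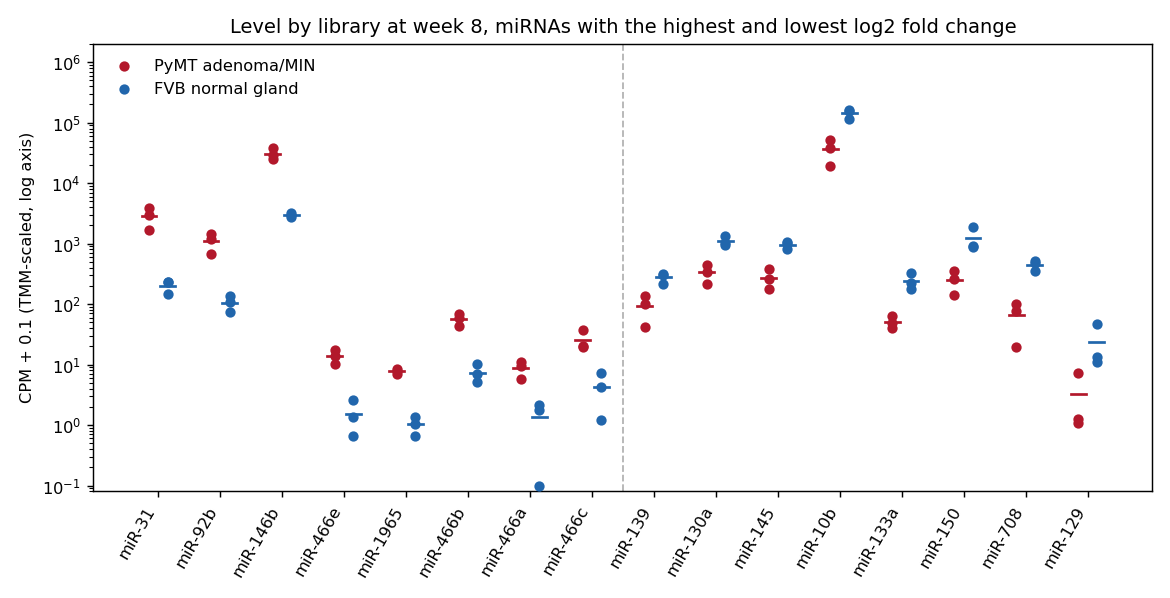
Level in each of the 6 week 8 libraries (TMM-scaled CPM plus 0.1, log axis) for calls whose libraries do not overlap, the 8 of highest and the 8 of lowest log2 fold change; red points are PyMT, blue points FVB and bars group means. miR-31, miR-92b and miR-146b combine a wide gap with at least 664 CPM in each PyMT library, whereas the miR-466 members and miR-1965 stay at or below 67.2 CPM; miR-466a was at 0 in FVB 1.

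All 5 members of the miR-200 family, which holds cells in the epithelial state by repressing Zeb1 and Zeb2, were over-expressed in PyMT adenoma/MIN. Of all tested miRNAs 21.9% were over-expressed. miR-200b, miR-200a and miR-429 lie together on mm9 chr4:155428014-155429859, and miR-141 and miR-200c on mm9 chr6:124667932-124668408. miR-200b was the most counted, at 14366, 16923 and 10333 CPM in PyMT and 1888, 2646 and 3220 CPM in FVB (log2 fold change 2.42 ± 0.29, adjusted p = 0.00189). The log2 fold changes of the others were 2.28 for miR-429, 2.26 for miR-200c, 2.15 for miR-200a and 1.69 for miR-141. The members were thus close to each other, within both clusters and both seeds, and all 5 calls held when any single library was left out.

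The miR-183/96/182 cluster, on mm9 chr6:30115918-30119737 and known from sensory cells and epithelial tumors, was over-expressed as a whole. miR-182 was at 33698, 49984 and 32434 CPM in PyMT and 10681, 8915 and 8768 CPM in FVB (log2 fold change 2.03 ± 0.25, adjusted p = 0.00189). miR-183 was at 12307, 15557 and 12612 and 1848, 2943 and 4090 CPM (log2 fold change 2.19) and miR-96 at 146.4, 178 and 169 and 45.3, 46 and 60.7 CPM (log2 fold change 1.70). All 3 calls held without any single library, and 21.9% of all tested miRNAs were over-expressed.

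Of 4 other miRNAs of epithelium, 2 were over-expressed, against 21.9% of all tested. miR-375, known from secretory epithelium, was at 162, 299 and 58.9 CPM in PyMT and 29.7, 49.3 and 36.9 CPM in FVB (log2 fold change 2.16, adjusted p = 0.0231), a call lost without PyMT 2, FVB 1 or FVB 3 (adjusted p = 0.0713 to 0.0793). miR-31 is given above. miR-205, which marks basal epithelium, was at 5722, 2014 and 6761 CPM in PyMT and 1595, 3677 and 4784 CPM in FVB, so that the groups overlapped (log2 fold change 0.53 ± 0.52, adjusted p = 0.415). miR-203, of stratified epithelium, overlapped as well, at 1072, 1022 and 1050 and 1662, 1263 and 978 CPM (adjusted p = 0.325).

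The miR-17/92 cluster on mm9 chr14:115442893-115443728, a Myc-driven promoter of proliferation, had 3 of its 6 members over-expressed, miR-19a, miR-17 and miR-92a. Over-expression was called for 21.9% of all tested miRNAs. For all 6 members the 3 PyMT libraries lay above the 3 FVB libraries, as they did for 74 of the 237 tested. The log2 fold changes were 1.40 for miR-19a, 1.15 for miR-17, 1.09 for miR-92a, 1.68 for miR-18a (adjusted p = 0.0599), 1.06 for miR-20a (0.0653) and 0.48 for miR-19b (0.136). FVB 1 was the lowest library for each of them, as for miR-18a with 15.3, 48.1 and 99.3 CPM in FVB and 155.4, 156 and 205.4 CPM in PyMT. With the replicate block miR-18a and miR-20a were also called (adjusted p = 0.000244 and 0.00504), and without PyMT 1, PyMT 2, PyMT 3 or FVB 2 the call of miR-17 was lost (adjusted p = 0.0522 to 0.0691). Of the related miR-106b/25 cluster 0 of 3 members were called by edgeR's quasi-likelihood or exact test or by DESeq2, and 0 had an unadjusted p under 0.05, with log2 fold changes of 0.20 to 0.39.

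Members of a seed family often parted. miR-146b was over-expressed, but miR-146a, which differs from it at 2 of 22 bases outside the seed and is induced in immune cells, was at 1508, 1164 and 1137 CPM in PyMT and 1915, 2021 and 1406 CPM in FVB (log2 fold change -0.49 ± 0.24, adjusted p = 0.134). The count of miR-146b per count of miR-146a was 19.3, 32.2 and 22.4 in PyMT and 1.44, 1.57 and 2.11 in FVB. The same held in a smaller degree for miR-92b, with 0.0185, 0.0225 and 0.0098 counts per count of miR-92a in PyMT and 0.00399, 0.00405 and 0.0023 in FVB. The other members of that seed family, miR-25 and miR-32, had log2 fold changes of 0.20 and -0.72, neither called.

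In the miR-148/152 family miR-148b was at 5566, 7490 and 5277 CPM in PyMT and 2692, 2350 and 3056 CPM in FVB (log2 fold change 1.18, adjusted p = 0.00705). miR-152 was at 601, 709 and 467 and 712, 620.3 and 699 CPM (log2 fold change -0.19 ± 0.24, adjusted p = 0.517). The most counted member, miR-148a, thus had the widest difference and the least counted, miR-152, overlapping libraries.

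miR-23b and miR-27b, which lie together on mm9 chr13:63401780-63402104, were over-expressed, whereas their paralogs miR-23a and miR-27a on chromosome 8 were not called. miR-27b was at 13030, 24674 and 11640 CPM in PyMT and 4296, 3350 and 3384 CPM in FVB (log2 fold change 2.16 ± 0.33, adjusted p = 0.00327). miR-27a, at 1 base of difference over 21, was at 789, 987 and 671 and 1346, 931 and 863 CPM (log2 fold change -0.36 ± 0.27, adjusted p = 0.302). miR-23b was at 5328, 8515 and 4575 CPM in PyMT and 1585, 1279 and 1103 CPM in FVB (log2 fold change 2.21), and miR-23a at 1558, 1990 and 1609 and 3126, 2018 and 1972 CPM (log2 fold change -0.46). In FVB the b member had fewer counts than the a member for miR-23 and in PyMT more, in each of the 3 libraries. How the counting assigned reads that match both paralogs is not given in the sources used here, so the levels of pairs so alike are uncertain. miR-24, which has a copy in each cluster, was not called (log2 fold change 0.21).

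The miR-130/301 family was the only one of 20 seed families examined with members called in both directions. miR-130b was at 101, 225 and 108 CPM in PyMT and 31.9, 67.1 and 36.9 CPM in FVB (log2 fold change 1.67 ± 0.45, adjusted p = 0.0243). miR-130a, on mm9 chr2:84581272-84581335, was at 337, 212 and 450.3 CPM in PyMT and 1037, 953 and 1351 CPM in FVB (log2 fold change -1.74 ± 0.33, adjusted p = 0.00705). miR-301a was at 492, 494 and 578 and 230.3, 364.7 and 270.0 CPM (log2 fold change 0.85, adjusted p = 0.0392). No member had overlapping groups, but the call of miR-130b was lost without PyMT 2, FVB 1 or FVB 3 (adjusted p = 0.0695 to 0.0956) and that of miR-301a without any library except FVB 2 (adjusted p = 0.0659 to 0.111). miR-301b, the neighbor of miR-130b, was called with the block alone (log2 fold change 1.45, adjusted p = 0.0876, with the block 0.0299).

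miR-708 likewise parted from miR-28, with which it shares a seed. miR-28, from an intron of Lpp, was at a log2 fold change of 0.15 ± 0.24 and was not called (adjusted p = 0.618). Over the 20 families the median range between the lowest and the highest member was 1.04 log2 units. These families were formed from 63 chosen mature sequences, not from all tested miRNAs, and the let-7 and miR-30 families were not among them. Of the 18 pairs of related miRNAs whose count ratios were compared, 16 had ratios that did not overlap between PyMT and FVB, as had 53.7% of all 25651 pairs of tested miRNAs with a count in each library. The 18 pairs were chosen with earlier results known and share members. Each of the 16 reached an exact two-sided permutation p of 0.1 (0.112 after Benjamini-Hochberg adjustment over the 18 pairs), the smallest that 3 against 3 libraries allow. The ratios of miR-200b to miR-429 and of miR-181a to miR-181d overlapped (exact permutation p = 0.2).

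**Figure D3:**
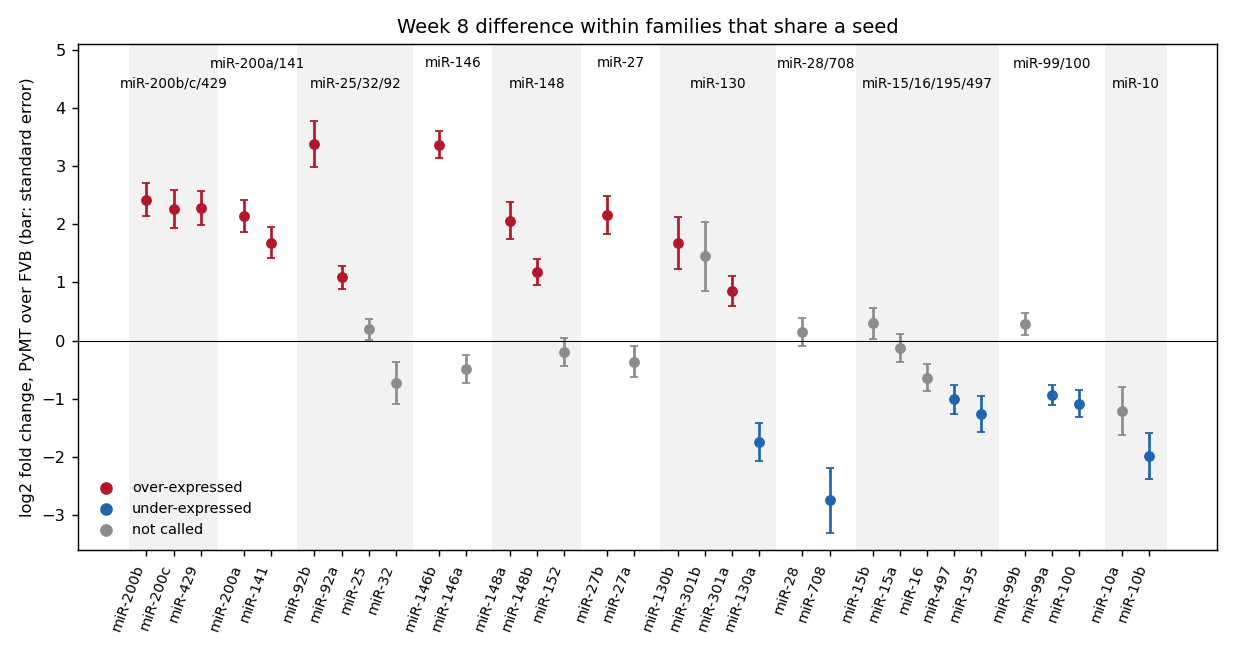
Log2 fold change of PyMT over FVB with its standard error for the members of 11 seed families, red where over-expressed, blue where under-expressed and gray where not called. The miR-200 members lie together near 2, while miR-146b and miR-146a, miR-92b and miR-25, miR-27b and miR-27a, and miR-130b and miR-130a lie on separate levels.

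Neighboring miRNAs were grouped by position. Of the 237 tested miRNAs 210 had a position in the mm9 annotation, and 111 of them formed 36 clusters on the same strand with gaps of at most 10 kb, where a miRNA with several copies counts in each. In 30 of the 36 clusters the log2 fold changes of all members had the same sign, and 13 clusters had no called member. Among the 23 clusters with a called member, 12 had over-expressed members, 11 had under-expressed members and 0 had both. All members were called in 11 clusters, and the median range of log2 fold change within a cluster was 0.52. These counts hold miR-181a with miR-181b at both of their positions. They also hold miR-92a with miR-19b on the X chromosome, where the counting of reads is uncertain. Clustered miRNAs can come from a single transcript and so are not independent of each other. Of all tested miRNAs 21.9% were over-expressed and 13.5% under-expressed. Most clusters held only 2 miRNAs, which often share a sign without being neighbors. The same counts were not made for miRNAs that are not neighbors, so these numbers are not read as shared regulation.

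The largest cluster of over-expressed miRNAs was that of the miR-297, miR-466, miR-467 and miR-669 families, of which 14 of 15 tested members lie within Sfmbt2 on mm9 chr2:10393881-10438791. In these families 7 of the 15 were over-expressed and 0 under-expressed, against 21.9% and 13.5% of all tested. The median log2 fold change of the 15 was 1.37. With the replicate block 11 were over-expressed, against 26.6% of all tested. The sequences of these families are very alike and have many copies, so the split of reads among members is uncertain. Summed over the families the level was 258, 198 and 186 CPM in PyMT and 54.5, 80.8 and 43.1 CPM in FVB, a separation without overlap.

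miR-466b, the most counted of those with the highest fold changes, was at 67.2, 58 and 42.8 CPM in PyMT and 5.1, 9.95 and 6.81 CPM in FVB (log2 fold change 2.94 ± 0.37, adjusted p = 0.00189). miR-466e was at 17.4, 13.7 and 10.2 and 1.28, 2.49 and 0.567 CPM (log2 fold change 3.15), and miR-466c at 37.2, 20.5 and 19.5 and 4.15, 7.04 and 1.13 CPM (log2 fold change 2.59). Those 3 calls held without any single library. miR-466a, at 10.8, 5.69 and 9.25 CPM in PyMT and 0, 2.07 and 1.7 CPM in FVB (log2 fold change 2.88 ± 0.77), lost its call without PyMT 1 or FVB 3 (adjusted p = 0.0678 and 0.061) and with scaling by library totals. miR-467a, miR-467e and miR-669a were called with log2 fold changes of 1.37, 1.07 and 1.13, but the call of miR-467a held only without PyMT 2 (adjusted p = 0.0549 to 0.103 without the others) and those of miR-467e and miR-669a were lost without any single library (adjusted p = 0.055 to 0.141 and 0.0522 to 0.144). Added by the block, miR-297b was at 6, 7.97 and 2.43 CPM in PyMT and 0.957, 2.49 and 0 CPM in FVB and miR-297c at 7.8, 2.28 and 1.46 and 0.638, 1.66 and 0.567 CPM, near the floor and with overlapping groups (adjusted p = 0.085 and 0.0876, with the block 0.0127 and 0.0431).

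Of the 4 members of the miR-181 family, 3 were over-expressed, against 21.9% of all tested miRNAs, and edgeR's exact test called 2. miR-181a, known from lymphocyte development, was at 4378, 5509 and 4085 CPM in PyMT and 2062, 2047 and 2120 CPM in FVB (log2 fold change 1.17 ± 0.20, adjusted p = 0.00448), with little spread in either group. miR-181c and miR-181b had log2 fold changes of 0.96 and 0.84 and lost their calls with scaling by library totals, the first also without PyMT 1, PyMT 2 or FVB 3 (adjusted p = 0.0525 to 0.0735) and the second without any library except FVB 3 (adjusted p = 0.0644 to 0.128), and miR-181d was not called (0.28).

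The under-expressed miRNAs included those known from the stroma of the gland. Both miR-143 and miR-145 were called, and miR-145 was at 262, 179.8 and 374 CPM in PyMT and 1024, 799.8 and 1047 CPM in FVB (log2 fold change -1.81 ± 0.32, adjusted p = 0.00567). The 3 fibroblast miRNAs were all under-expressed, against 13.5% of all tested. miR-199a was at 4754, 2801 and 4732 CPM in PyMT and 9015, 8080 and 7315 CPM in FVB (log2 fold change -0.99, adjusted p = 0.0209), miR-199b had a log2 fold change of -1.16 and miR-214 of -1.005. PyMT 2 was the lowest library for each of these 5 and for miR-126, the endothelial miRNA given above. The call of miR-199a was lost without FVB 2 (adjusted p = 0.0507), and that of miR-214 held only without PyMT 3 (adjusted p = 0.054 to 0.107 without the others).

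Of the skeletal muscle miRNAs, miR-133a was under-expressed, at 63, 48.9 and 40.9 CPM in PyMT and 178, 222.5 and 326 CPM in FVB (log2 fold change -2.25 ± 0.35, adjusted p = 0.00327). miR-133b had 2 counts over the PyMT libraries and 18 over the FVB libraries. The quasi-likelihood test called it with the block but not without it (adjusted p = 0.117, with the block 0.039). Without the block edgeR's exact test called 2 of the 3 tested members of this list. miR-206 and miR-208b were listed at 0 in all 6 libraries, and miR-1 was at 3.6, 2.28 and 0 and 5.1, 6.63 and 5.11 CPM (adjusted p = 0.136). The list as a whole summed to at most 337 CPM in any library.

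Of the leukocyte miRNAs 1 was over-expressed (miR-146b), 1 under-expressed (miR-150) and 3 not called, with miR-223 listed at 0. miR-142, found in all blood lineages, was at 1408, 1599 and 1513 CPM in PyMT and 1536, 1938 and 1159 CPM in FVB, an overlap (log2 fold change -0.04 ± 0.24, adjusted p = 0.901). miR-155, of activated lymphocytes, overlapped too (adjusted p = 0.387). Of 4 adipocyte miRNAs, miR-193 was under-expressed, at 93.6, 74 and 116 CPM in PyMT and 262, 178 and 374 CPM in FVB (log2 fold change -1.51, adjusted p = 0.0164, lost without PyMT 1 at 0.0549). With the block miR-365 and miR-378 were also called (adjusted p = 0.0244 and 0.00531), where FVB 1 alone held 18864 CPM of miR-378 against 6083 and 3793 in the other FVB libraries.

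The erythrocyte miRNAs moved with single libraries. miR-451, matured by Ago2 in red cells, was at 466, 374 and 2320 CPM in PyMT and 3377, 4597 and 2466 CPM in FVB, so that PyMT 3 lay just under the FVB range and the other PyMT libraries far below (log2 fold change -1.72 ± 0.68, adjusted p = 0.0804, with the block 0.000903). Summed over miR-144, miR-451 and miR-486 the level was 2944, 1994 and 11121 CPM in PyMT and 15592, 19637 and 8846 CPM in FVB. Without the block 0 of the 3 were called and 1 had an unadjusted p under 0.05, while edgeR's exact test called 1 and DESeq2 called 2. With the block all 3 were under-expressed, against 28.7% of all tested. Without PyMT 3 miR-451 had a log2 fold change of -2.96 (adjusted p = 0.00145).

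Summed levels of these marker miRNAs come from the same libraries as the calls above. The summed miR-200 family ranged from 15605 to 26344 CPM in PyMT and from 3262 to 4950 CPM in FVB. Of the other epithelial miRNAs, miR-205 and miR-203 overlapped between the groups. The summed fibroblast miRNAs ranged from 4548 to 7750 CPM in PyMT and from 12507 to 14947 CPM in FVB. Of the 13 tested miRNAs in the lists of smooth muscle, fibroblast, endothelial, skeletal muscle and adipocyte cells, 8 were under-expressed and 0 over-expressed, against 13.5% and 21.9% of all tested. Of 5 tested leukocyte miRNAs 1 was over-expressed and 1 under-expressed, and of 3 erythrocyte miRNAs 0 were called by the quasi-likelihood test without the block. The part of cell types in the other differences was not tested.

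The miRNAs of the Hox clusters, which mark position along the body axis, were lower in PyMT, but with a large spread between replicate numbers. Of the 5, edgeR's quasi-likelihood test called only miR-10b without the block and all 5 with it. Without the block 3 had an unadjusted p under 0.05, and edgeR's exact test and DESeq2 each called 3. Of all tested miRNAs 13.5% were under-expressed without the block and 28.7% with it. miR-196a was at 123, 2.28 and 163 CPM in PyMT and 541, 5.8 and 526 CPM in FVB, and miR-196b at 102, 4.55 and 144.6 and 522, 4.14 and 498.6 CPM. Replicate 2 of both groups was thus far below replicates 1 and 3 in both miRNAs, and the groups overlapped. Within numbers 1 and 3 the PyMT library was the lower of the pair for both. In number 2 the levels of miR-196b were almost alike, but there both miRNAs were near the floor. The floor of 3 counts was 3.41 CPM in PyMT 2 and 1.24 CPM in FVB 2, so number 2 does not resolve a difference. miR-10a was at 47525, 18182 and 44956 CPM in PyMT and 119152, 64438 and 71966 CPM in FVB without overlap (log2 fold change -1.21 ± 0.42, adjusted p = 0.0545, with the block 0.00113). miR-615, from an intron of Hoxc5, was at 30.6, 9.1 and 29.7 and 123, 39.8 and 56.7 CPM (adjusted p = 0.0545, with the block 0.000244). What made replicate 2 low in both groups was not tested.

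**Figure D4:**
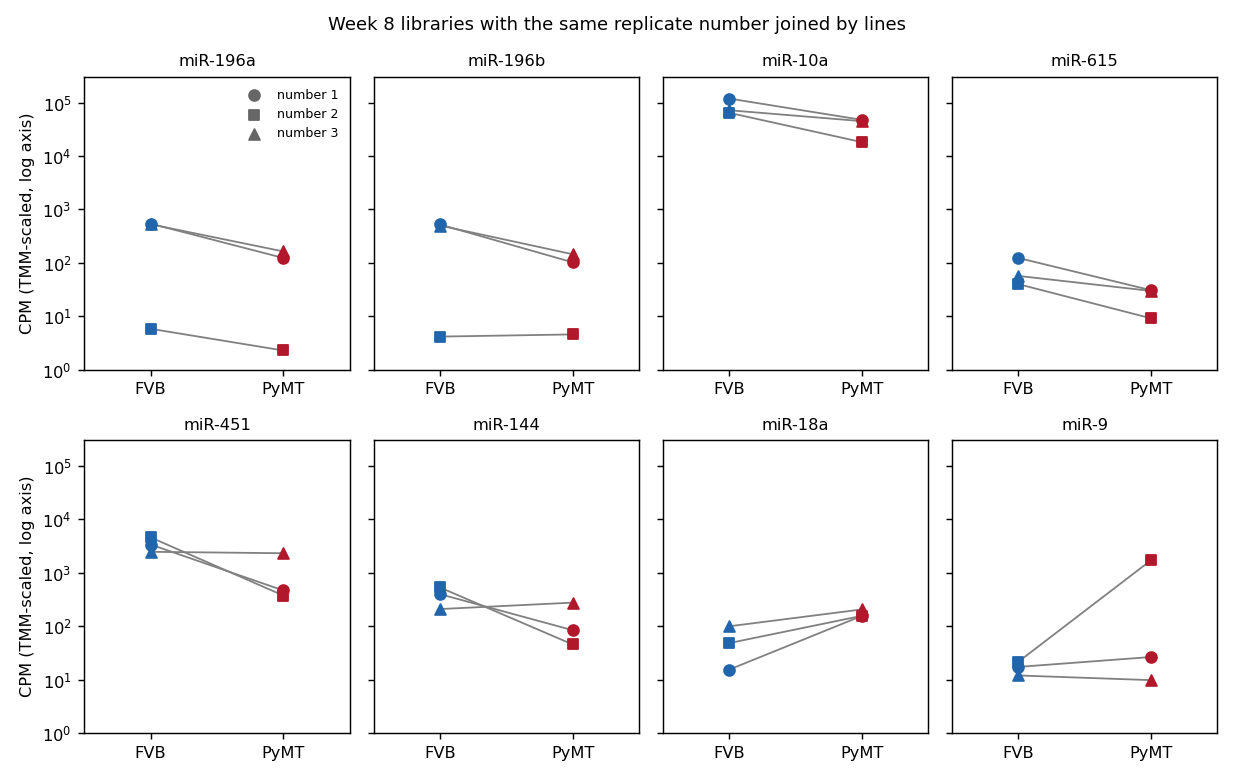
Level (TMM-scaled CPM, log axis) of 8 miRNAs in the FVB (blue) and PyMT (red) libraries of week 8, with libraries of the same replicate number joined by a line. Number 2 is low in both groups for miR-196a and miR-196b, PyMT 3 stands near the FVB libraries for miR-451 and miR-144, FVB 1 is lowest for miR-18a, and PyMT 2 alone is high for miR-9.

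miR-9 had a higher fitted fold change than miR-31 but was not called. Its level was 26.4, 1720 and 9.74 CPM in PyMT and 17.2, 21.5 and 11.9 CPM in FVB, so that PyMT 2 alone stood out (adjusted p = 0.0573). Without PyMT 2 its log2 fold change was 0.09 (adjusted p = 0.888), and without PyMT 1 or PyMT 3 it passed the threshold (adjusted p = 0.0341 and 0.0181). It was singled out after its values were seen. Of the other miRNAs that the block added, miR-592 had 1 count in PyMT 1, 0 in PyMT 2 and PyMT 3, and 19, 4 and 2 counts in FVB (adjusted p = 0.0514, with the block 0.0197).

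The imprinted Dlk1-Dio3 region on chromosome 12 had few calls without the block. Of 8 tested proximal members 0 were called, 1 had an unadjusted p under 0.05, and edgeR's exact test called 1 and DESeq2 called 2. Of 28 distal members 2 were under-expressed, miR-411 (log2 fold change -0.95) and miR-329 (-1.14). Of all tested miRNAs 13.5% were under-expressed without the block. The call of miR-411 held only without FVB 1 (adjusted p = 0.0539 to 0.168 without the others) and that of miR-329 only without PyMT 3 or FVB 1 (0.117 to 0.164 without the others). With the block 4 of the 8 and 12 of the 28 were under-expressed, against 28.7% of all tested. The median log2 fold changes were -0.74 and -0.58. miR-127, the most counted of them, was at 9507, 10028 and 16470 CPM in PyMT and 12954, 23036 and 24245 CPM in FVB (adjusted p = 0.106, with the block 0.0262). In both groups replicate 1 was the lowest for miR-127, and the groups overlapped.

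In the 7 remaining groups of related miRNAs 9 of 33 tested members were under-expressed and 0 over-expressed without the block, against 13.5% and 21.9% of all tested. In the miR-29 family, repressors of collagens, miR-29c and miR-29b were under-expressed, and miR-29c was at 1352, 799 and 1040 CPM in PyMT and 4317, 2169 and 1986 CPM in FVB (log2 fold change -1.41, adjusted p = 0.0208). FVB 1 was the highest library for both, the call of miR-29c was lost without PyMT 3 (adjusted p = 0.055), and that of miR-29b without PyMT 1, PyMT 2, PyMT 3 or FVB 1 (adjusted p = 0.0583 to 0.0902). miR-29a was not called (log2 fold change -0.76). Of the miR-99/100 and miR-125 miRNAs 3 were under-expressed, miR-125b (log2 fold change -1.16), miR-100 (-1.08) and miR-99a (-0.93), and all 3 calls held without any single library, whereas miR-99b and miR-125a were not called (0.29 and 0.01).

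miR-195 and miR-497, which lie together on mm9 chr11:70048219-70048637, were under-expressed members of the miR-15/16 family, with log2 fold changes of -1.27 and -1.01. Their relatives miR-15a, miR-15b and miR-16 were not called (-0.12, 0.30 and -0.63), and miR-322 was listed at 0. With the block miR-16 was under-expressed (adjusted p = 0.0599, with the block 0.0401). The call of miR-195 was lost without FVB 3 (adjusted p = 0.0505) and that of miR-497 without PyMT 1 or FVB 2 (adjusted p = 0.0694 and 0.0509).

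The 8 tested let-7 miRNAs, repressors of growth genes, had log2 fold changes of -0.71 to -0.03. Of these, let-7a was called, at 6805, 6758 and 6932 CPM in PyMT and 10932, 8928 and 13614 CPM in FVB (adjusted p = 0.0362), and its call held without FVB 2 but was lost without any other single library (adjusted p = 0.0512 to 0.125). Of the p53-linked miR-34 family miR-34b was called (log2 fold change -1.06), a call lost without any single library (adjusted p = 0.0522 to 0.16). Of the miR-30 family 0 of 5 and of miR-26 with miR-101 0 of 4 were called by edgeR's quasi-likelihood test, 1 and 0 had an unadjusted p under 0.05, and edgeR's exact test and DESeq2 called 0. With the block miR-30c was called (log2 fold change 0.71, adjusted p = 0.0295).

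**Figure D5:**
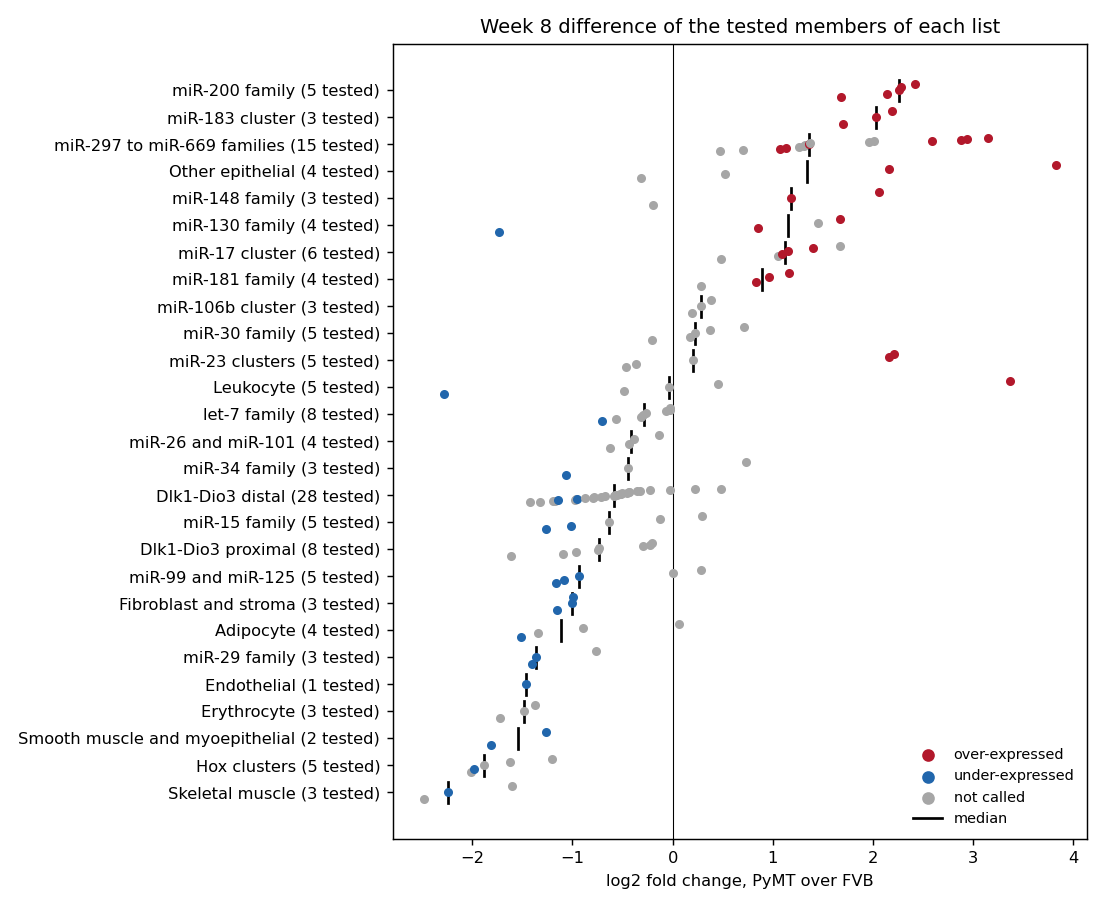
Log2 fold change of PyMT over FVB of each tested miRNA, by list, with the median as a bar and calls in color. The miR-200 family and the miR-183/96/182 cluster lie wholly at 1.69 or higher. The smooth muscle, fibroblast, endothelial, skeletal muscle, erythrocyte and Hox cluster lists lie wholly at -0.99 or lower, whether their members were called or not.

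Whether the difference at week 8 departed from that of other weeks was tested in a fit of all 24 libraries, in which each week had its own controls. Against week 6, against week 10 and against the mean of weeks 6, 10 and 12, 0 of 237 miRNAs passed edgeR's quasi-likelihood test (0% in each), and 13, 0 and 1 had an unadjusted p under 0.05. With the replicate block these numbers were 16, 1 and 2, with 0 calls, and DESeq2 called 0. Without PyMT 3 miR-451 alone was called, against week 6 (difference -2.18, adjusted p = 0.0262) and against the mean of the other weeks (difference -1.84, adjusted p = 0.0287). Without the block the lowest p against week 6 was that of miR-181a, whose log2 fold change at week 6 was 0.50 and at week 8 1.20, with 1.03 and 1.07 at the later weeks (difference 0.70 ± 0.20, adjusted p = 0.49). With the block miR-382 and miR-10b had lower p-values than miR-181a (differences 2.32 and -1.14, adjusted p = 0.344 for each).

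For miR-31 the values in the order of the weeks were 2.79, 3.86, 3.23 and 3.54, with a difference of 1.08 ± 0.43 between weeks 8 and 6 (adjusted p = 0.732). miR-146b varied less, with 3.09, 3.40, 3.10 and 3.10. miR-708 had -1.44, -2.72, -3.13 and -3.36. The median standard error of a difference between weeks 8 and 6 was 0.431 log2 units.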

How the data were processed

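Per the labels and the study's methods, RNA of snap-frozen tumors and glands was made into TruSeq small RNA libraries, and the authors trimmed reads, aligned those of 17 to 27 bases with Bowtie and counted reads that overlapped more than 50% of a miRBase miRNA. The deposited table holds these raw counts, not normalized. Its columns name mm9, while the methods name a later build, and positions here are from the mm9 gene annotation. miRBase and Bowtie versions are not given in the sources used here. Columns were matched to samples by their descriptions.

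The 6 libraries of week 8 were compared with edgeR 4.0.16 (quasi-likelihood test, TMM, Benjamini-Hochberg, threshold 0.05), without covariates, on 237 miRNAs kept by filterByExpr over all 24 libraries and tested on simulated data first. CPM values carry no pseudocount, and counting intervals or floors (3 counts) cover counting error only. Weeks were compared by interaction terms after fitting all 24 libraries together. In a check of pairing, deviations from the group means correlated at 0.52, 0.35 and 0.36 over 237 miRNAs within the same-numbered pairs 1, 2 and 3. The other pairs were at -0.33 to -0.15. The deviations within a group sum to 0, so these negative values are not separate evidence, and the miRNAs are not independent replicates. The pairing comes from the replicate numbers of the labels and this check, and the sources state no shared litter. Replicates 1 and 2 of both groups were sequenced on lane 1 and replicate 3 on lane 2, per the file headers. miRNAs were named by rank (the 8 highest and 8 lowest log2 fold changes among calls without overlap, the 5 most counted in each group, the 5 largest among those called with the block alone) or as members of 27 lists, and the comparison, the members and the lists were chosen with earlier results of these data known. Alternatives included DESeq2 1.42.0 and its size factors, library totals, other filters, thinned counts, the block, the lane and leaving out each library. R 4.3.3 and Python 3.11.15 were used.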

Additional observations from a re-analysis of the deposited data

How the results depend on the processing

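In place of the 84 calls, 76 to 101 were made with DESeq2 size factors, the DESeq2 Wald test, edgeR's exact test, without a filter, with 10 counts or more required of each library, with a filter on the 6 libraries, without the 5 most counted miRNAs, or with the lane as a covariate, and 69 and 70 with a log2 fold change of at least 1 and after thinning to the lowest total. Scaling by library totals gave 58, with 33 over-expressed, the DESeq2 Wald test 50 under-expressed of 101 (50.5% over-expressed, against 61.9%), and the fit of all 24 libraries 122, with 52 under-expressed. No call turned its direction in any of these settings. The replicate block gave 131, with 68 under-expressed and 85 list members in place of 52. Chosen after seeing the data, the block with DESeq2 size factors gave 67 under-expressed and 83 list members, with library totals 80 and without replicate 2 108.

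Leaving out 1 library gave 50 to 81 calls, 32 to 48 over-expressed and 18 to 33 under-expressed. The lowest were without PyMT 1, 50, 32 and 18, and 21 were under-expressed without PyMT 2. Of the 84 calls 39 (27 over-expressed, 12 under-expressed) were kept in all 6 of these fits. Without the same replicate number in both groups the calls were 15 to 51 (15 without replicate 1, 51 without replicate 2, 44 without replicate 3), 12 to 34 over-expressed (12, 32 and 34) and 3 to 19 under-expressed (3, 19 and 10), and those of list members 13 without replicate 1 and 30 without replicate 3. Without PyMT 3, 1 miRNA differed between week 8 and week 6 and 1 between week 8 and the mean of the other weeks, against 0. The causes of these shifts were not tested, beyond the smaller number of samples in the fits without a library. PyMT 2, of the lowest depth, had the highest floor of 3 counts, 3.41 TMM-scaled CPM, so that differences of miRNAs near it were not detectable there.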

Other observations

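Outside the 27 lists 90 miRNAs were tested, of which 22 were over-expressed and 10 under-expressed, against 21.9% and 13.5% of all tested. Those named here were chosen after their values were seen. miR-210, which hypoxia induces in most cell types, was at 518, 464 and 482 CPM in PyMT and 253, 252 and 222.9 CPM in FVB (log2 fold change 1.01 ± 0.23, adjusted p = 0.0125 in edgeR's quasi-likelihood test). The groups did not overlap, but the call was lost without PyMT 1 (adjusted p = 0.0691). miR-296 and miR-298, neighbors in the imprinted Gnas region on mm9 chr2:174092548-174093086, were both over-expressed, and miR-298 was at 354, 187 and 350.0 CPM in PyMT and 31.3, 116 and 103 CPM in FVB (log2 fold change 1.84, adjusted p = 0.0302). The call of miR-296 was lost without PyMT 1, FVB 1 or FVB 3 (adjusted p = 0.0546 to 0.105) and that of miR-298 without PyMT 1 or FVB 3 (adjusted p = 0.0694 to 0.0745). miR-335, from an intron of the imprinted gene Mest, was at 217, 187 and 449 CPM in PyMT and 401, 603 and 2065 CPM in FVB, with FVB 3 far above the rest. The quasi-likelihood test without the block did not call it (adjusted p = 0.0583), but 13 of 25 other settings did. Among these were the replicate block (adjusted p = 0.000383) and, without it, the fits that left out FVB 1 or PyMT 3 (adjusted p = 0.0387 and 0.0471).

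Among abundant miRNAs, miR-22 was at 3104, 3142 and 3588 CPM in PyMT and 7475, 5619 and 7342 CPM in FVB (log2 fold change -1.06, adjusted p = 0.00739). miR-103 was at 2675, 2738 and 3236 and 6549, 4702 and 5964 CPM (log2 fold change -0.99, adjusted p = 0.011, without PyMT 1 0.0555), and miR-107, of the same seed, overlapped between the groups with FVB 1 alone high (log2 fold change -0.76, adjusted p = 0.212). miR-21, which is raised in many carcinomas, was at 17585, 15711 and 21812 CPM in PyMT and 14623, 13431 and 17417 CPM in FVB and was not called (log2 fold change 0.28 ± 0.22, adjusted p = 0.321).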
